A study of Homo sapiens with 4 samples.

Results

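PSN-1 was compared with MIA PaCa-2, 2 human lines derived from tumours of the pancreas and labelled as epithelial, for the genes that each expressed irrespective of the oligonucleotide it had received. All 4 libraries of the series entered the comparison, 2 of PSN-1 and 2 of MIA PaCa-2, and 12423 of the 26255 gene symbols were tested. In each line 1 library came from cells transfected with a mimic of the microRNA miR-4800-3p, labelled as its overexpression, and 1 from cells transfected with a scrambled negative control oligonucleotide. All cells were thus transfected, and no untransfected library entered. The libraries were made to find which transcripts this microRNA acts on in metastasis. Here the scramble library of PSN-1 was set against the scramble library of MIA PaCa-2, and the mimic library against the mimic library. A gene was called higher in a line when it was at least 2-fold higher in both pairs, on the scale of log2(FPKM + 1), and when limma with the oligonucleotide as a block gave an adjusted p under 0.05. FPKM counts fragments relative to the length of the transcript and the total of the library.

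Carcinomas of the pancreas are often sorted by the resemblance of their RNA to normal ductal epithelium. So-called classical tumours express endodermal transcription factors such as GATA6 and FOXA2 together with mucins and trefoil factors, whereas basal-like or squamous tumours lose these and may gain TP63. Many pancreatic lines also carry deletions or mutations of tumour suppressors such as CDKN2A and SMAD4, and combine keratins with vimentin, an intermediate filament of mesenchymal cells. Lines differ as well in the matrix they secrete, the integrins with which they hold it and the metabolic enzymes they use.

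The depth was estimated from the steps between low values, and 1 FPKM stood for 12.6 to 15.9 fragments per kilobase of transcript. A transcript of 2 kb at 0.1 FPKM would rest on 2.53 to 3.19 fragments, so a value listed at 0 allows a low level, and at 5 FPKM it would rest on 126 to 159. Between 15699 and 17294 symbols were above 0, the most abundant 10 genes made up 7.39% to 7.99% of all FPKM, and median-ratio factors lay between 1.002 and 1.004. Each line had 1 library for each oligonucleotide, and nothing in the labels names separate cultures. The p-values thus measure only how far the 2 pairs agree, in the gene itself and, with more weight, in genes of similar level. The library names run in a separate number series for each line, so line and library preparation cannot be told apart. In bulk RNA, fewer expressing cells and less RNA per cell cannot be told apart either.

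Libraries of 1 line resembled each other far more than libraries of different lines. Across the 12423 genes, the median absolute log2 difference between mimic and scramble was 0.18 for MIA PaCa-2 and 0.17 for PSN-1. Between the lines it was 0.59 in the scramble pair and 0.58 in the mimic pair. Within a line 1.88% (MIA PaCa-2) and 1.51% (PSN-1) of the genes passed 2-fold, against 29.5% and 30.0% between the lines. By both pairs and the test, 1833 genes were higher in PSN-1 (14.8% of those tested) and 1112 were higher in MIA PaCa-2 (8.95%). Larger differences were more often in the direction of PSN-1, with 453 called genes past 8-fold against 112. The median difference over all tested genes was 0.015 in values that were already near a common scale, so a shift of all genes could not be seen. With equal summed FPKM the counts were 1903 and 1057.

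**Figure D1:**
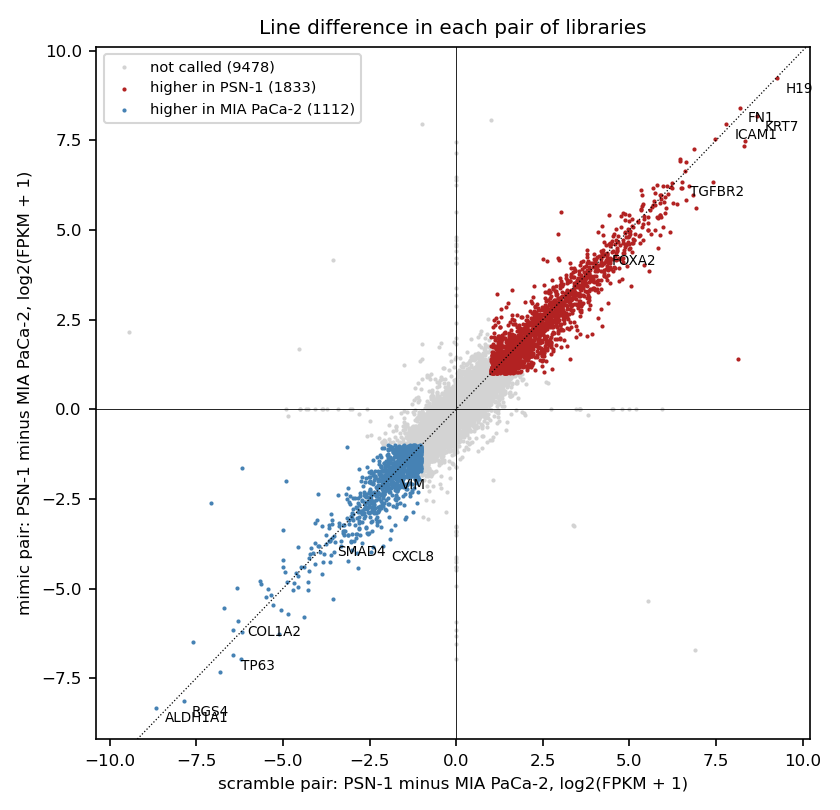
Each point is 1 of 12423 genes, with the difference PSN-1 minus MIA PaCa-2 in log2(FPKM + 1) for the scramble libraries on the x axis and for the mimic libraries on the y axis, and the dotted line marks equal differences. The 1833 genes called higher in PSN-1 and the 1112 called higher in MIA PaCa-2 lie along that line, and 10 genes lie past 2-fold in opposite quadrants.

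The strongest differences towards PSN-1 were in the imprinted long non-coding RNA H19 and in secreted, keratin and adhesion genes. In the following, the 2 values of a line are given with the scramble library first and the mimic library second. H19 was at 1774 and 959 FPKM in PSN-1 and at 1.89 and 0.609 in MIA PaCa-2, a difference of 9.24 ± 0.11 (SE; adjusted p = 4.84e-05). GDF15, a stress-induced secreted factor of the TGF-beta family, was at 903 and 682 FPKM against 1.81 and 2.82 (difference 7.91 ± 0.22). MDK, the heparin-binding growth factor midkine, was at 648 and 498 FPKM against 1.04 and 2.1 (7.82 ± 0.25). In each case the lower PSN-1 library lay far above the higher MIA PaCa-2 library. SULF2, which trims sulphate groups from heparan sulphate outside the cell, was at 199 and 195 FPKM against 1.02 and 0.646, and WLS, the carrier that brings WNT ligands to the cell surface, at 105 and 101 against 0.104 and 0.0310. IGF2, the growth factor gene that neighbours H19, was at 24.2 and 18.8 FPKM in PSN-1 and under 0.1 in MIA PaCa-2.

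Towards MIA PaCa-2 the leading genes encoded an aldehyde dehydrogenase, signalling regulators and fibrillar collagens. ALDH1A1, which oxidises retinal and other aldehydes, was at 429 and 319 FPKM in MIA PaCa-2 and at 0.0729 and 0 in PSN-1, a difference of -8.48 ± 0.15 (adjusted p = 6.98e-05). RGS4, which shortens signalling by G proteins, was at 316 and 412 FPKM against 0.360 and 0.461 (-8.0 ± 0.14). ID3, an inhibitor of basic helix-loop-helix transcription factors, was at 214 and 228 FPKM against 0.914 and 0.423 (-7.07 ± 0.18). None of these genes passed 1 FPKM in either PSN-1 library. HSPA1A, a heat shock protein gene with a near-identical neighbour between which reads could be split, was at 1055 and 687 FPKM in MIA PaCa-2 and at 9.26 and 13.6 in PSN-1 (-6.12 ± 0.27). RNF182, a ubiquitin ligase, was at 81.7 and 135 FPKM against 0.129 and 0.0815, and BARX2, a homeobox factor, at 70.4 and 84.5 against 0.606 and 1.28.

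Genes were counted as expressed in 1 line only where both of its libraries held at least 5 FPKM and both libraries of the other line were under 0.1. There were 258 such genes in PSN-1, 2.88% of its 8946 genes at 5 FPKM or more, and 46 in MIA PaCa-2, 0.543% of its 8477. Of these 1 and 8 were short non-coding genes, whose FPKM is unreliable. Of the 258 PSN-1 genes 168 were listed at 0 in both MIA PaCa-2 libraries, and 31 of the 46 MIA PaCa-2 genes were listed at 0 in both PSN-1 libraries. The lower of the 2 values reached 20 FPKM in 71 of the PSN-1 genes and in 16 of the MIA PaCa-2 genes. In PSN-1 VWA1 (5.02 FPKM) lay just inside the limit and APOL3 (5.0) just outside, and in MIA PaCa-2 GABRD (4.75) lay just outside. The counts depend on the limits: with at least 2 FPKM they were 452 and 84, and with at least 10 FPKM 154 and 27.

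**Figure D2:**
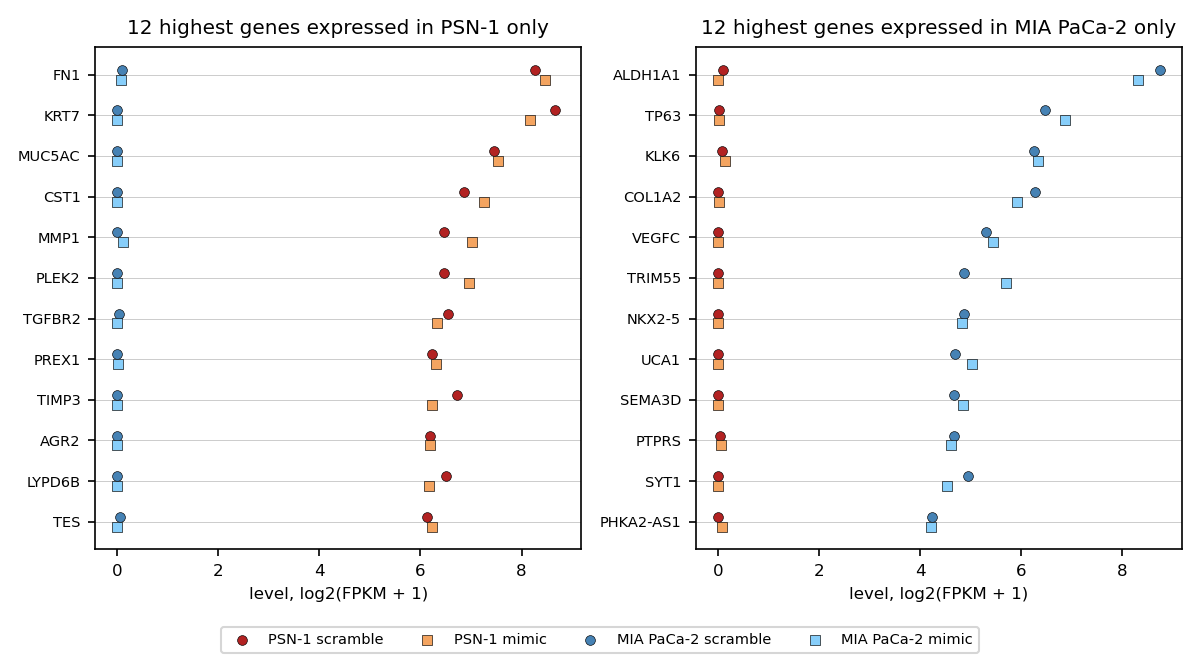
The 12 genes with the highest lower value among those expressed in PSN-1 only (left) and in MIA PaCa-2 only (right), leaving out short non-coding genes, with 1 point per library on the scale of log2(FPKM + 1). All points of the silent line lie at or near 0, and those of the other line lie above 4.

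The PSN-1 genes at the top of this set were FN1, KRT7, MUC5AC, CST1 and MMP1. FN1, the matrix protein fibronectin, was at 308 and 353 FPKM in PSN-1 and at 0.0696 and 0.0457 in MIA PaCa-2 (difference 8.29 ± 0.14). KRT7, a keratin of ducts, was at 406 and 287 FPKM and was listed at 0 in both MIA PaCa-2 libraries (8.42 ± 0.17). MUC5AC, a secreted gastric mucin, was at 175 and 183 FPKM and likewise listed at 0 (7.49 ± 0.14). PLEK2, which binds membrane phosphoinositides, TIMP3, an inhibitor of metalloproteinases bound to the matrix, PREX1, an exchange factor for RAC, and TES, a focal adhesion protein, held between 68.8 and 124 FPKM in PSN-1 and at most 0.0326 in MIA PaCa-2. The genes at the top in MIA PaCa-2, after ALDH1A1, were TP63, KLK6, COL1A2 and VEGFC. KLK6, a secreted serine protease, was at 75.6 and 80.3 FPKM against 0.0618 and 0.0981 (-6.19 ± 0.15). VEGFC, a growth factor for lymphatic vessels, was at 38.3 and 42.7 FPKM and was listed at 0 in PSN-1 (-5.37 ± 0.16). TRIM55, a muscle ubiquitin ligase, NKX2-5, a heart transcription factor, and SEMA3D, a secreted guidance cue, were at 24.4 to 51.2 FPKM in MIA PaCa-2 and listed at 0 in PSN-1. PHKA2-AS1 was at 18.0 and 17.7 FPKM, but it is an antisense gene and the strand setting of the counting is not given in the sources used here.

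Promoter sequences of 4 of these genes are shown because each gene went from high in one line to near or at 0 in the other, and their start regions differ in base composition. They were chosen after their values were seen, among genes with 1 listed start. The sequences are from RefSeq (GRCh38.p14, a later build than the hg19 of the files), run from 250 bases before to 50 bases after the start, 5′ to 3′ on the strand of the gene, which is the minus strand for all 4, and capitals mark CpG dinucleotides. FN1 (chr2:215436019-215436318) and AGR2 (chr7:16804950-16805249) were expressed in PSN-1 only, and VEGFC (chr4:176792873-176793172) and ALDH1A1 (chr9:72953004-72953303) in MIA PaCa-2 only.
FN1: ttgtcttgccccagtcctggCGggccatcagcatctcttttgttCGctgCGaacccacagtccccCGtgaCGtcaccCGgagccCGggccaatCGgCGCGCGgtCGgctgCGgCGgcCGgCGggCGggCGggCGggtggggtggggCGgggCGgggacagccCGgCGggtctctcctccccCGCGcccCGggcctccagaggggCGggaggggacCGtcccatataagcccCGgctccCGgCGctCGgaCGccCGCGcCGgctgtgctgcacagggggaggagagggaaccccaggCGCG
AGR2: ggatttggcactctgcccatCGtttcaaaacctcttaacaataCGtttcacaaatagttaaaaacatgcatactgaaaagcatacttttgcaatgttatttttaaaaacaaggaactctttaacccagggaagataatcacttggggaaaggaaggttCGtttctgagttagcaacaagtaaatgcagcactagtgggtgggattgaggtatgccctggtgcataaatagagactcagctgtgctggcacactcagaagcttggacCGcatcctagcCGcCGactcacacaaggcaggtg
VEGFC: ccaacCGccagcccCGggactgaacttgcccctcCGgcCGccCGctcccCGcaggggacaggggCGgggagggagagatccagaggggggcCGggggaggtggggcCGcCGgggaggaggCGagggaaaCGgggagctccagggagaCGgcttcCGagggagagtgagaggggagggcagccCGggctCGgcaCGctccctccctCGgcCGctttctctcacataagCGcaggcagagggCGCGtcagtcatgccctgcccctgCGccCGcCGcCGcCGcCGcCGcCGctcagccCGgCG
ALDH1A1: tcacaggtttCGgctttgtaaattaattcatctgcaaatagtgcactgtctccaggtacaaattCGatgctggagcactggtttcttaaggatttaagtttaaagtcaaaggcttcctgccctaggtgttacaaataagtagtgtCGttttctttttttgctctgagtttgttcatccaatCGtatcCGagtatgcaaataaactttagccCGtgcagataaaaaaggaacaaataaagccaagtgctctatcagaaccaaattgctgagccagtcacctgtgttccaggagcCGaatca
The stretch of FN1 holds 38 CpG and that of VEGFC 32, at observed over expected ratios of 0.86 and 0.74. Those of AGR2 and ALDH1A1 hold 6 and 7, at ratios of 0.42 and 0.57. The genes were shown because their start regions differ, so a CpG-rich and a CpG-poor start in each line describes only these 4 genes. Methylation was not measured.

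In the lineage genes PSN-1 carried a ductal and classical set that MIA PaCa-2 lacked, while both lines shared simple epithelial keratins. Of 27 ductal and classical-type markers 17 were tested, 13 were higher in PSN-1 and the other 4 were not called, with a median difference of 4.63 beside 0.015 over all genes. Of the 13, 9 were expressed in PSN-1 only. The remaining 10 did not pass the filter on low values, 5 of them with under 0.1 FPKM everywhere. A gene near 0 in one line passes that filter only through the other and had to differ, so these and the following counts describe the lists and support no difference between them. Beside each of these counts stand the shares over all tested genes, 14.8% higher in PSN-1 and 8.95% higher in MIA PaCa-2. AGR2, a disulphide isomerase of mucus-secreting cells, was at 72.0 and 72.2 FPKM in PSN-1, and S100P, a calcium-binding protein of many carcinomas, at 58.7 and 57.5, and both were listed at 0 in MIA PaCa-2. The neighbouring trefoil factor genes TFF1, TFF2 and TFF3 were at 37.9 and 27.2, 33.0 and 23.9, and 58.4 and 52.6 FPKM in PSN-1 and at 0 in MIA PaCa-2. TSPAN8, a tetraspanin, and ANXA10, an annexin of gastric epithelium, were between 20.5 and 28.2 FPKM and also at 0. By contrast KRT8 was at 665 and 537 FPKM in PSN-1 and 923 and 737 in MIA PaCa-2, and KRT18 at 495 and 556 against 653 and 718. KRT19, a further ductal keratin, was at 92.3 and 78.2 against 131 and 178. These 3 keratins were abundant in every library, and none was called, although KRT19 would be called without the MIA PaCa-2 scramble library (-1.05).

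Among the transcription factors of pancreas and endoderm the lines expressed different members. Of 33 listed, 10 were tested, 5 were higher in PSN-1 and 3 in MIA PaCa-2 (median difference 1.5), and 8 were under 0.1 FPKM everywhere. FOXA2, a pioneer factor of endoderm, was at 17.8 and 20.5 FPKM in PSN-1 and 0 in MIA PaCa-2 (4.33 ± 0.18, adjusted p = 0.000118), and GATA6, which marks classical tumours, at 15.3 and 12.5 against 0.0440 and 0.0983 (3.79 ± 0.19). ELF3, an epithelial ETS factor, was at 61.6 and 24.6 FPKM against 0.107 and 0.144, and BHLHA15, a factor of secretory cells, at 7.99 and 5.47 against 0. PSN-1 was thus the line with the endodermal pair. GATA4, the relative of GATA6, was the other way round, at 6.05 and 5.44 FPKM against 19.5 and 18.6 in MIA PaCa-2 (-1.57 ± 0.14). MNX1, a factor of early pancreas and motor neurons, was at 1.60 and 1.59 against 10.1 and 8.41. PAX6, a factor of islet and neural cells, was at 2.61 and 1.46 against 13.4 and 10.4, and its call was lost without the PSN-1 mimic library (-1.83). SOX9, the ductal factor, was high in both lines at 47.2 and 41.2 against 85.1 and 122 and was not called, except when the MIA PaCa-2 scramble library was left out (-1.44). PDX1 stayed under 1 FPKM in all 4 libraries.

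Basal and squamous markers were led by TP63 in MIA PaCa-2. TP63, the master factor of squamous epithelium, was at 87.4 and 116 FPKM there and at 0.0180 and 0.0143 in PSN-1 (-6.65 ± 0.17, adjusted p = 7.28e-05). The long non-coding RNA UCA1 was at 25.1 and 31.7 FPKM against 0. The rest of the list did not follow: of 24 listed, 7 were tested, 3 were higher in MIA PaCa-2 but 1 in PSN-1, 10 were under 0.1 FPKM everywhere, and the median was 0.14. KRT15, a basal keratin, was at 8.34 and 6.42 FPKM in PSN-1 and 5.18 and 7.68 in MIA PaCa-2, and DHRS9, a retinol dehydrogenase, was at 18.2 and 12.9 in PSN-1 and 0 in MIA PaCa-2. Acinar genes were scarce, with 10 of 17 under 0.1 FPKM everywhere. The 2 tested, the trypsinogens PRSS1 and PRSS3, were at 20.6 and 17.4 and at 22.4 and 28.5 FPKM in PSN-1 and 0 in MIA PaCa-2, and as close paralogues they may share reads.

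Of 26 neuroendocrine and neuronal markers 6 were tested, and 4 were higher in MIA PaCa-2 but 1 in PSN-1 (median -1.28). Of the 4, SCG2 and SYP lost their calls with a pseudocount of 5 FPKM (-0.83 and -0.71) and without the PSN-1 mimic library (-1.45 and -1.11), and SYP also without the PSN-1 scramble library (-1.08). TUBB3, the neuronal beta-tubulin, was at 250 and 209 FPKM in MIA PaCa-2 and 38.1 and 47.0 in PSN-1 (-2.41 ± 0.16). SYT1, a sensor for vesicle release, was at 30.0 and 22.2 against 0, whereas SNAP25, its partner in vesicle fusion, was at 17.8 and 17.5 FPKM in PSN-1 and 0.0425 and 0.152 in MIA PaCa-2. The 2 vesicle genes thus lay in opposite lines. Of 39 HOX genes 14 were tested (median 0.01), and those called included HOXA3, HOXA5 and HOXA6, higher in PSN-1, and HOXB8, HOXB9 and HOXB13, higher in MIA PaCa-2. HOXA3 was at 7.60 and 3.51 FPKM against 0.618 and 0.736, and HOXB9 at 1.87 and 1.73 against 15.6 and 19. HOXB2 and HOXB3 were between 8.46 and 18.1 FPKM in all 4 libraries and were not called. The call of HOXA3 was lost without the MIA PaCa-2 scramble library (1.84), and those of HOXA3, HOXA5, HOXA6 and HOXB13, all low genes, with a pseudocount of 5 FPKM.

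**Figure D3:**
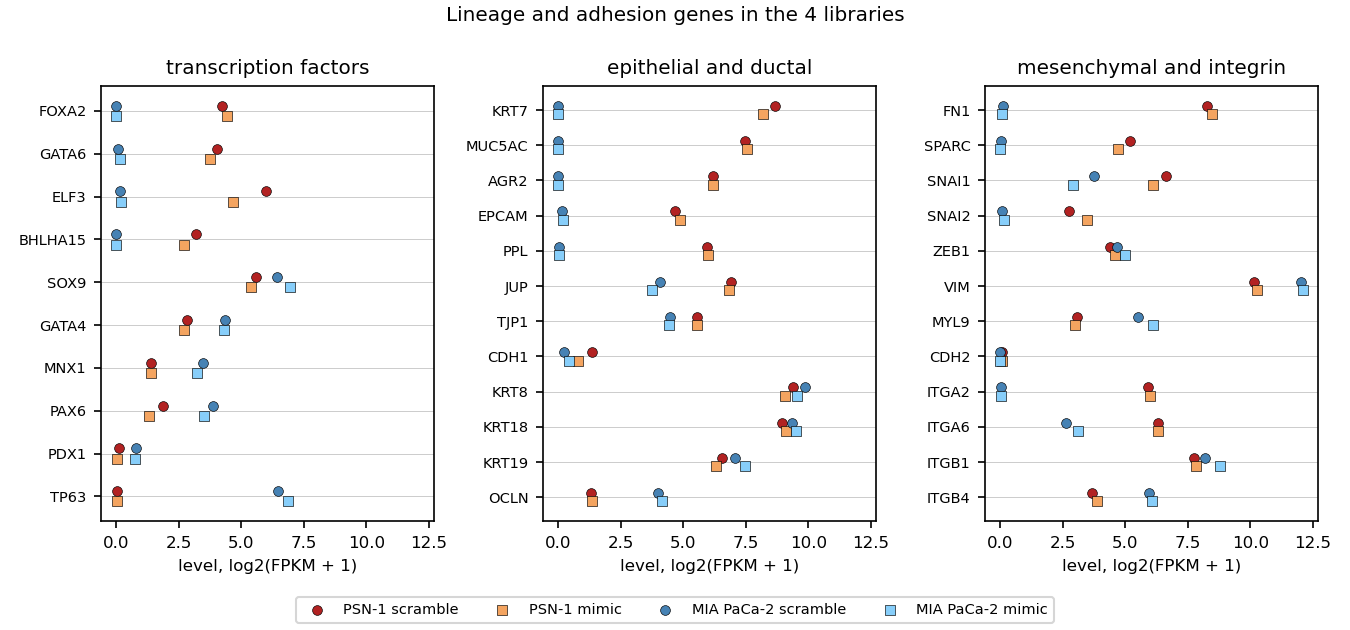
Levels of transcription factors (left), epithelial and ductal genes (middle) and mesenchymal and integrin genes (right) as log2(FPKM + 1), with 1 point for each of the 4 libraries. FOXA2, GATA6, KRT7, MUC5AC, EPCAM, FN1 and ITGA2 are high in both PSN-1 libraries and near 0 in both MIA PaCa-2 libraries, TP63 is the reverse, and KRT8, KRT18, VIM and ZEB1 are high in all 4.

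The epithelial label was checked against its defining genes. CDH1, the E-cadherin of adherens junctions, reached at most 1.51 FPKM in PSN-1 (1.51 and 0.720) and 0.335 in MIA PaCa-2 (0.170 and 0.335). EPCAM, an epithelial adhesion molecule, was at 24.1 and 28.4 FPKM in PSN-1 and 0.104 and 0.139 in MIA PaCa-2 (4.60 ± 0.17, adjusted p = 0.000101). Of 7 epithelial markers, 6 reached 1 FPKM in both PSN-1 libraries and 3 in both MIA PaCa-2 libraries. CDH1 RNA was thus too low to be tested in these lines labelled epithelial, and EPCAM was near 0 in MIA PaCa-2. VIM was at 1144 and 1235 FPKM in PSN-1 and 4111 and 4401 in MIA PaCa-2 (-1.84 ± 0.05), and ZEB1, a repressor of E-cadherin, at 19.8 and 22.7 against 24.1 and 30.5, a difference that was not called. CDH2, the N-cadherin gene, was under 0.1 FPKM in every library.

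Other genes of epithelial junctions were mostly higher in PSN-1, with 12 of 20 tested higher there and 2 higher in MIA PaCa-2 (38 listed, median 1.76). PPL, the desmosomal linker periplakin, was at 61.3 and 63.1 FPKM against 0.0261 and 0.0233. JUP, which joins desmosomes and adherens junctions, was at 120 and 112 against 15.7 and 12.6 (2.96 ± 0.12). The 2 exceptions were tight junction membrane proteins. OCLN, occludin, was at 14.7 and 16.5 FPKM in MIA PaCa-2 and 1.5 and 1.55 in PSN-1 (-2.71 ± 0.16), and MARVELD2, tricellulin, at 12.2 and 11.8 against 2.82 and 2.75 (-1.78 ± 0.16). Of 32 mesenchymal genes 23 were tested, with 8 (34.8%) higher in PSN-1, 3 (13.0%) in MIA PaCa-2 and a median of 0.22. SPARC, a matricellular protein, was at 34.9 and 25.3 FPKM against 0.0232 and 0. SNAI1 and SNAI2, repressors of epithelial genes, were at 97.6 and 67.6 against 12.3 and 6.59, and at 5.68 and 10.1 against 0.0412 and 0.111. MYL9, a contractile light chain, was at 44.7 and 68.4 FPKM in MIA PaCa-2 and 7.38 and 6.88 in PSN-1. The other 12 tested mesenchymal genes were not called, and the summed level of the list was 4550 and 4100 FPKM in PSN-1 against 6140 and 6820 in MIA PaCa-2. VIM alone made up 1144 and 1235 FPKM of the sums in PSN-1 and 4111 and 4401 of those in MIA PaCa-2. The direction of the sums rested on this gene, since the rest of the list summed to less in MIA PaCa-2 than in PSN-1. The calls of SNAI1 and MYL9 were lost when either PSN-1 library was left out, with differences of 3.29 and 2.77 for SNAI1 and of -2.75 and -2.84 for MYL9.

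Integrins, the receptors that bind matrix, were mostly higher in PSN-1. Of 25 listed, 13 were tested, and 9 (69.2%) were higher in PSN-1 and 1 (7.69%) in MIA PaCa-2 (median 1.79). For all tested genes the shares were 14.8% and 8.95%. ITGA2, the collagen-binding alpha 2 chain, was at 59.6 and 62.0 FPKM against 0.0209 and 0.00932 (5.93 ± 0.15, adjusted p = 7.28e-05), and ITGA6, a laminin-binding chain, at 77.8 and 77.9 against 5.22 and 7.61 (3.43 ± 0.16). ITGB5 was at 98.6 and 71.8 against 7.17 and 9.72, and its partner ITGAV at 36.1 and 36.6 against 8.43 and 9.92. ITGB4, the beta chain that pairs with ITGA6 in hemidesmosomes, went the other way, at 11.6 and 13.7 FPKM in PSN-1 and 60.4 and 66.7 in MIA PaCa-2 (-2.25 ± 0.12). The 2 chains of that receptor were thus each higher in a different line. The common beta chain ITGB1, at 213 and 227 against 291 and 438, and ITGA3, at 163 and 181 against 90.0 and 104, were abundant in both lines and not called.

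Of 47 immunoglobulin-type and other adhesion molecules 28 were tested, 10 (35.7%) were higher in PSN-1 and 2 (7.14%) in MIA PaCa-2 (median 0.48). All tested genes stood at 14.8% and 8.95%. ICAM1, a ligand of leukocyte integrins, was at 259 and 264 FPKM against 0.181 and 0.0692 (7.87 ± 0.14), and VCAM1, another such ligand, at 63.2 and 55.4 against 0 and 0.0258 (5.89 ± 0.16). ALCAM was at 17.2 in both PSN-1 libraries and at 0 in MIA PaCa-2. JAM3, a junctional adhesion molecule, was at 16.8 and 14.9 FPKM in MIA PaCa-2 and 0.716 and 0.760 in PSN-1. L1CAM, a neural adhesion molecule, was at 2.17 and 2.34 against 1.23 and 2.80, and the lines overlapped. The cadherins other than CDH1 and CDH2 were largely silent, with 30 of 56 under 0.1 FPKM everywhere. Of the 8 tested 3 (37.5%) were higher in each line (median 0.67). With a pseudocount of 5 FPKM all 3 calls towards PSN-1, of CDH13 (0.58), CELSR3 (0.94) and FAT1 (0.95), were lost, as was that of CDH24 towards MIA PaCa-2 (-0.81). FAT1 also lost its call without the MIA PaCa-2 mimic (0.94), the PSN-1 mimic (1.21) or the PSN-1 scramble library (0.95). PCDH1, a protocadherin, was at 64.4 and 99.9 FPKM in MIA PaCa-2 and at 4.25 in both PSN-1 libraries (-3.95 ± 0.19).

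Matrix genes were the secreted group with the most called members. Of 61 collagens, laminins and other matrix proteins 35 were tested, 23 were higher in PSN-1, 7 in MIA PaCa-2, and the median was 2.31. The laminin chain LAMB1, part of basement membranes, was at 95.9 and 101 FPKM against 1.30 and 0.921. THBS1, thrombospondin 1, was at 85.0 and 52.9 against 0.0335 and 0.0200, and COL6A1 at 280 and 332 against 44.7 and 48.1. MIA PaCa-2 had other collagens. COL5A2, a chain that sets fibril width, was at 151 and 145 FPKM there and 0.763 and 1.04 in PSN-1 (-6.29 ± 0.15), COL6A2 at 27.3 and 32.0 against 0.275 and 0.574, and COL4A2 at 5.67 and 6.09 against 0.169 and 0.0723. COL4A1, the partner of COL4A2, was also higher there, at 4.19 and 3.11 against 0.199 and 0.257. The chains of type I collagen lay in different lines. COL1A2, the alpha 2 chain of type I collagen, was at 76.8 and 59.9 FPKM in MIA PaCa-2 and at 0 and 0.0120 in PSN-1, while COL1A1, the alpha 1 chain, was at 12.6 and 10.2 in PSN-1 and 0.0824 and 0 in MIA PaCa-2. For type VI collagen COL6A1 was higher in PSN-1 and COL6A2 in MIA PaCa-2.

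Secreted proteases and their inhibitors were called higher in PSN-1 in 19 of 34 tested members and higher in MIA PaCa-2 in 6 (55 listed, median 2.11). The called shares were 55.9% and 17.6%, beside 14.8% and 8.95% over all tested genes, and 12 members were expressed in PSN-1 only. MMP1, an interstitial collagenase, was at 86.9 and 130 FPKM against 0 and 0.0826 (6.69 ± 0.18), and MMP2, a gelatinase, at 52.2 and 31.0 against 0. The cystatin CST1 was at 115 and 151 FPKM against 0, though it has near-identical neighbours such as CST4. SERPINE2, an inhibitor of thrombin and plasminogen activators, was at 76.1 and 88.3 against 0.230 and 0.205. PSN-1 thus held both enzymes and inhibitors at levels that MIA PaCa-2 lacked. SERPINA3, an acute-phase inhibitor, was at 253 and 338 FPKM in MIA PaCa-2 and 6.38 and 3.43 in PSN-1 (-5.68 ± 0.28), and the kallikrein KLK5, a neighbour of KLK6, at 4.75 and 4.06 against 0. PLAU, urokinase, was at 277 and 325 against 315 and 669 and was not called, except without the MIA PaCa-2 scramble library (-1.15).

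Of 48 chemokines and cytokines 29 were tested, and 17 (58.6%) were higher in PSN-1 and 4 (13.8%) in MIA PaCa-2 (median 2.24). All tested genes stood at 14.8% and 8.95%. The 4 higher in MIA PaCa-2 were all CXC chemokines: CXCL1, CXCL5, CXCL8 and CXCL16. CXCL1, which attracts neutrophils, was at 243 and 642 FPKM in MIA PaCa-2 and 11.7 and 18.4 in PSN-1 (-4.66 ± 0.20), and CXCL8 at 70.6 and 478 against 15.6 and 32.8 (-2.97 ± 0.40). In MIA PaCa-2 the mimic library was well above the scramble library for both. Their calls were lost when either PSN-1 library was left out, at -4.97 and -4.35 for CXCL1 and -3.48 and -2.46 for CXCL8, and that of CXCL8 also without the MIA PaCa-2 mimic library (-1.60). That of CXCL16 was lost without the PSN-1 mimic library (-1.37). Among the genes called higher in PSN-1 were interleukins, although IL11, at 2.69 and 7.18 against 1.70 and 1.91, was not called. IL6 was at 15.3 and 14.9 FPKM and the neighbours IL1A and IL1B at 8.06 and 7.70 and at 10.9 and 5.66, all at 0 in MIA PaCa-2. CSF2, a growth factor for granulocytes and macrophages, was at 58.5 and 40.2 against 0, and CCL2, which attracts monocytes, at 76.1 and 59.4 against 0 and 0.129. TGFB1 was at 133 and 125 FPKM against 8.32 and 17.1, without a call when either PSN-1 library was left out (3.36 and 3.28).

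Of 74 growth factors, WNT ligands and secreted modulators 40 were tested, 18 were higher in PSN-1 and 10 in MIA PaCa-2 (median 1.02). CTGF, a matricellular target of Hippo and TGF-beta signalling, was at 50.5 and 41.2 FPKM against 0.110 and 0.0328, TGFA, a ligand of the EGF receptor, at 34.1 and 32.9 against 0.0191 and 0, and IGFBP3, which binds insulin-like growth factors, at 39.98 and 33.1 against 0. On the MIA PaCa-2 side were axon guidance cues and a WNT inhibitor. SEMA3A, a repulsive cue, was at 104 in both MIA PaCa-2 libraries and 4.98 and 5.53 in PSN-1 (-4.07 ± 0.13). DKK1, a secreted WNT inhibitor, was at 48.7 and 110 against 5.22 and 6.25 (-3.47 ± 0.25), a call that was lost without either PSN-1 library (-3.58 and -3.36). VEGFA, the vascular growth factor, was at 78.7 and 75.8 FPKM in PSN-1 and 58.7 and 55.3 in MIA PaCa-2 and was not called, unlike its relative VEGFC.

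**Figure D4:**
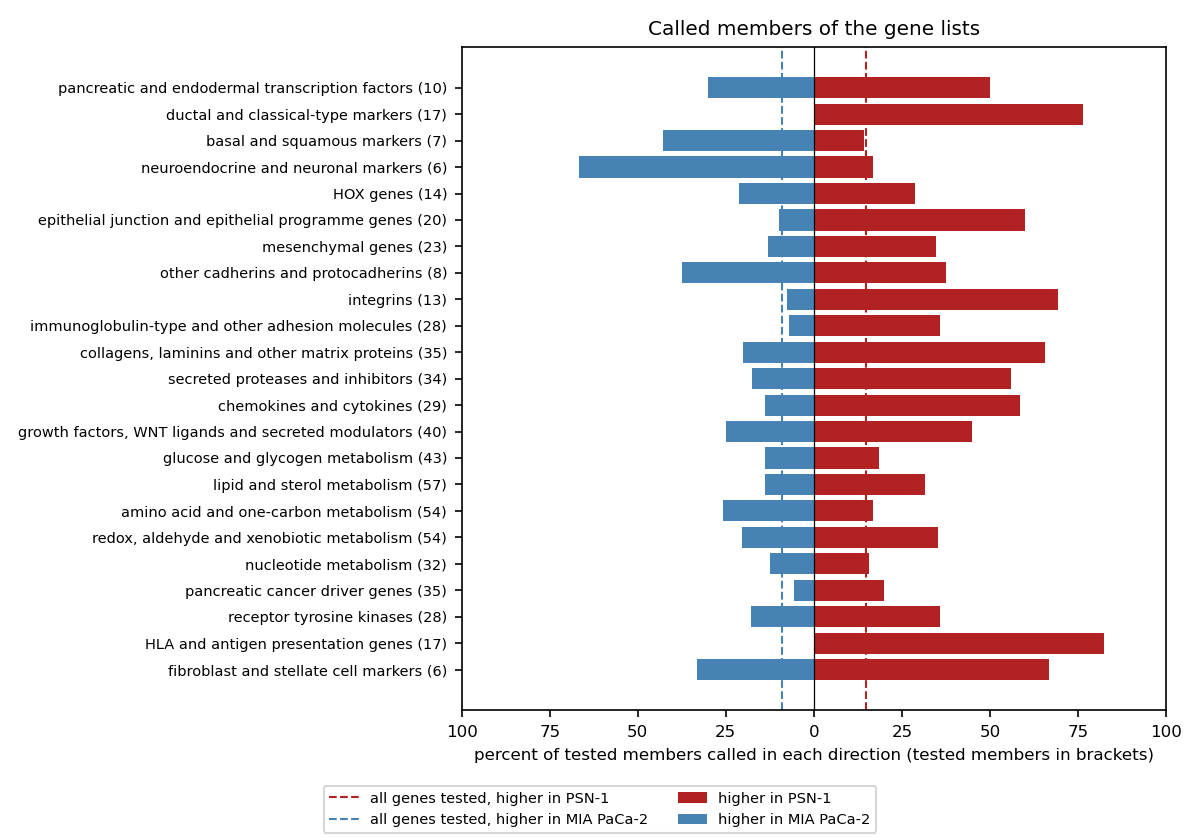
Percent of the tested members of each list called higher in PSN-1 (red, to the right) and higher in MIA PaCa-2 (blue, to the left), with the number of tested members in brackets, for lists with at least 5. The dashed lines mark 14.8% and 8.95% over all tested genes. The red bars of the ductal, integrin, matrix, HLA and fibroblast lists pass 60%, and the nucleotide list lies close to both dashed lines.

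Metabolic genes were called in both directions, and over all tested genes 14.8% were higher in PSN-1 and 8.95% in MIA PaCa-2. For glucose and glycogen metabolism 43 of 55 members were tested, 8 were higher in PSN-1 and 6 in MIA PaCa-2 (median 0.18). These shares of 18.6% and 14.0% were not far above those over all genes. SLC2A1 and SLC2A3, glucose transporters, were at 157 and 174 against 56.8 and 63.1 FPKM (1.45 ± 0.10) and at 109 and 179 against 10.1 and 17.1 (3.31 ± 0.12), the latter without a call when the PSN-1 mimic library was left out (2.96). PDK4, a kinase that inhibits pyruvate dehydrogenase, was at 38.6 and 28.0 against 0.405 and 0.161. MIA PaCa-2 had more PCK2, the mitochondrial enzyme that makes phosphoenolpyruvate, at 59.8 and 65.3 FPKM against 8.01 and 8.31 (-2.79 ± 0.13), and more PFKL, the liver form of phosphofructokinase, at 122 and 111 against 32.5 and 29.1 (-1.88 ± 0.11). Isoforms of 1 step differed in direction, since PFKP, the platelet form, was at 148 and 163 in PSN-1 and 69.4 and 77.0 in MIA PaCa-2. PGD, of the pentose phosphate pathway, was at 48.2 and 48.6 against 145 and 121 (-1.43 ± 0.12).

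Lipid and sterol genes were called in 26 of 57 tested members, 18 (31.6%) higher in PSN-1 and 8 (14.0%) in MIA PaCa-2 (80 listed, median 0.28). PTGS2, the inducible cyclooxygenase, was at 28.5 and 37.7 FPKM against 0.0183 and 0, and ACSL5, which activates fatty acids, at 34.1 and 24.6 against 0.0522 and 0.0233. APOE was at 66.8 and 46.2 against 1.10 and 1.11, and the sterol exporters ABCG1 and ABCA1 at 19.1 and 18.99 against 0.318 and 0.181 and at 18.2 and 14.8 against 0.214 and 0.198. These 3 genes of sterol export were together on the PSN-1 side. ELOVL6, which extends saturated fatty acids, was at 17.0 and 9.13 in PSN-1 and 0 in MIA PaCa-2, whereas SCD, the desaturase that acts on such chains, was at 64.5 and 53.8 against 165 and 179 FPKM. LPIN1, a phosphatidate phosphatase, was at 22.4 and 27.2 in PSN-1 and 77.6 and 88.9 in MIA PaCa-2 (-1.71 ± 0.12). SOAT1, which esterifies cholesterol, was at 18.6 and 19.4 against 17.1 and 17.5 and was not called.

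Amino acid and one-carbon metabolism was the metabolic list with more calls towards MIA PaCa-2. Of 72 listed, 54 were tested, 14 (25.9%) were higher in MIA PaCa-2 against 9 (16.7%) in PSN-1 (median -0.04). Over all tested genes these shares were 8.95% and 14.8%. ASNS, asparagine synthetase, was at 200 and 232 FPKM in MIA PaCa-2 and 49.2 and 58.1 in PSN-1 (-1.99 ± 0.10, adjusted p = 0.000167). CBS and CTH, the 2 steps from homocysteine to cysteine, were at 86.7 and 91.5 against 17.5 and 11.7, and at 36.1 and 42.8 against 9.62 and 11.5. In serine synthesis, PSAT1 was at 135 and 147 against 43.1 and 45.8 and PSPH at 37.6 and 41.5 against 17.2 and 13.3. The first enzyme of that pathway lay the other way, as PHGDH was at 144 and 134 FPKM in PSN-1 and 59.1 and 77.2 in MIA PaCa-2, but it stayed under 2-fold in the mimic pair (0.79) and was called only without the MIA PaCa-2 mimic library (1.22). KYNU, of tryptophan breakdown, was at 40.1 and 61.9 in PSN-1 and 0 in MIA PaCa-2, and NNMT, which methylates nicotinamide, at 58.3 and 39.4 against 0.0571 and 0. ASS1, of arginine synthesis, was at 70.6 and 61.9 FPKM against 13.1 and 12.9 (2.26 ± 0.13), while ASL, the next step, was at 8.31 and 13.2 against 33.5 and 29.8.

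Redox, aldehyde and xenobiotic genes were called in both directions, 19 (35.2%) higher in PSN-1 and 11 (20.4%) in MIA PaCa-2 of 54 tested and 80 listed (median 0.07). AKR1B1, aldose reductase, was at 167 and 164 FPKM against 2.17 in both MIA PaCa-2 libraries (5.71 ± 0.13), CYP1B1, an oestrogen and arene hydroxylase, at 61.1 and 50.9 against 0.476 and 0.979, and CA12, a carbonic anhydrase of the cell surface, at 22.7 and 19.6 against 0.178 and 0.167. Aldehyde dehydrogenases were divided between the lines. ALDH2, the mitochondrial form, was at 51.7 and 53.1 in PSN-1 and 5.31 and 4.01 in MIA PaCa-2, ALDH7A1 at 10.98 and 11.5 against 65.7 and 70.4, and ALDH1A1 was the strongest gene of MIA PaCa-2. ALDH1A3, a retinal dehydrogenase, was at 50.4 and 11.7 in PSN-1 and 29.7 and 25.9 in MIA PaCa-2, so the groups overlapped. TXNIP, an inhibitor of thioredoxin, was at 571 and 562 FPKM against 38.7 and 74.0, without a call when either PSN-1 library was left out (3.39 and 3.37). NQO1, a quinone reductase, was at 110 and 84.7 against 266 and 277. Nucleotide metabolism was close to all genes, with 5 of 32 tested members higher in PSN-1 and 4 in MIA PaCa-2 (39 listed, median -0.05). CDA, the deaminase that inactivates the drug gemcitabine, was at 8.66 and 12.3 FPKM in PSN-1 and 0 and 0.371 in MIA PaCa-2 (3.28 ± 0.18). NT5E, which makes adenosine outside the cell, was at 127 and 184 in MIA PaCa-2 and 32.7 and 48.0 in PSN-1, without a call when either PSN-1 library was left out (-2.19 and -1.65).

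Genes of TGF-beta signalling, in which surface receptors act through SMAD proteins, differed between the lines at separate steps. TGFBR2, the type II receptor that binds the ligand, was at 92.3 and 79.8 FPKM in PSN-1 and 0.0178 and 0 in MIA PaCa-2 (6.43 ± 0.15, adjusted p = 7.28e-05), and TGFBR1, the type I receptor, at 34.8 and 41.1 against 4.58 and 7.09, the latter without a call when either PSN-1 library was left out (2.41 and 2.65). SMAD3, which the receptors phosphorylate, was at 68.3 and 49.4 against 2.84 and 3.15 (3.89 ± 0.19). SMAD4, the shared partner of the receptor-regulated SMADs, was listed at 0 in both PSN-1 libraries and was at 11.7 and 11.9 in MIA PaCa-2 (-3.68 ± 0.18, adjusted p = 0.000165). A different gene was thus at or near 0 in each line, TGFBR2 in MIA PaCa-2 and SMAD4 in PSN-1. ELAC1, the gene next to SMAD4, was also at 0 in PSN-1 and at 6.85 and 6.57 in MIA PaCa-2. ME2 and MEX3C, the nearest expressed genes on either side of the pair, were expressed in PSN-1 but lower than in MIA PaCa-2. ME2 was at 14.4 and 14.4 FPKM against 31.4 and 24.6 (-0.90), called only without the MIA PaCa-2 mimic library (-1.07). MEX3C was at 5.76 and 6.42 against 14.8 and 18.4 and was called (-1.31). The call of MEX3C was lost with a pseudocount of 5 FPKM (-0.96) and without either PSN-1 library (-1.38 and -1.24). No genomic copy number was measured.

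Of 38 listed tumour suppressors and drivers 35 were tested, 7 were higher in PSN-1 and 2 in MIA PaCa-2 (median 0.04), counts that include TGFBR1, TGFBR2, SMAD3 and SMAD4. KDM6A, a histone demethylase, was at 22.2 and 27.3 FPKM in PSN-1 and 0 in MIA PaCa-2, and ARID1B, a subunit of SWI/SNF chromatin remodellers, at 13.3 and 13.0 against 0. At chromosome 9p21 the cell cycle inhibitor CDKN2A and the neighbouring MTAP were at or under 0.499 FPKM in all libraries, and at 0 in MIA PaCa-2. CDKN2B, the next inhibitor gene, was at 41.9 and 40.7 in PSN-1 and 0 in MIA PaCa-2 (5.4 ± 0.16). FOCAD and MLLT3, also listed for 9p21 but not among the nearest measured genes, were at 4.95 and 4.25 and at 5.29 and 4.74 against at most 0.0108. Beside KDM6A the neighbour FUNDC1, a mitophagy receptor, was at 23.0 and 14.3 FPKM in PSN-1 and 0 in MIA PaCa-2, and beside ARID1B the genes TMEM242 and ZDHHC14 on one side were expressed in MIA PaCa-2, at 3.64 and 4.77 and at 29.7 and 35.9.

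**Figure D5:**
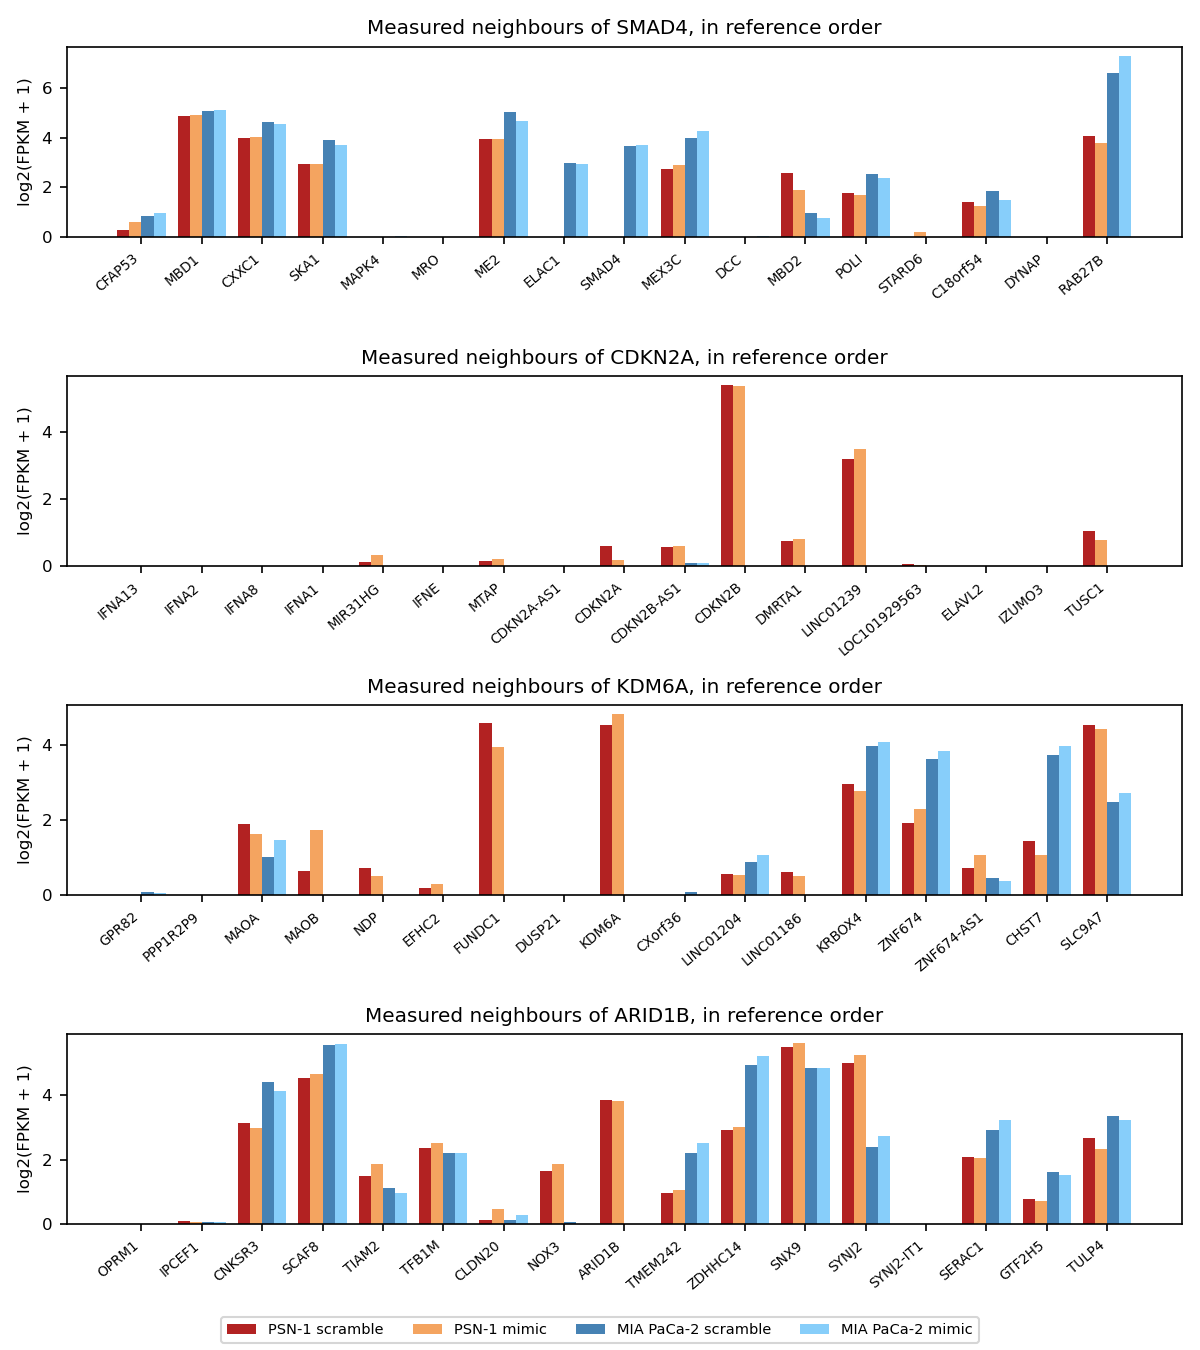
Levels as log2(FPKM + 1) of the measured genes on either side of SMAD4, CDKN2A, KDM6A and ARID1B, in the order of the reference annotation and not to scale, with 1 bar for each library. ELAC1 and SMAD4 have no bar in PSN-1, KDM6A with FUNDC1 and ARID1B have none in MIA PaCa-2, and of the genes around CDKN2A only CDKN2B-AS1 has a visible bar in MIA PaCa-2.

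Genes expressed in 1 line only were sometimes neighbours. Of the 258 PSN-1 genes 253 could be placed in the order of measured genes, and 29 of them stood directly beside another, in 14 runs. The runs included TFF3, TFF2 and TFF1, IL1A and IL1B, CST4 and CST1, GBP3 and GBP1, and SLFN11 and SLFN12, pairs or triplets of related genes, as well as neighbours of unrelated function such as MMP2 and LPCAT2. Of the 37 MIA PaCa-2 genes placed, only ELAC1 and SMAD4 were neighbours.

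Genes of antigen presentation were higher in PSN-1 in 14 of 17 tested members (82.4%, beside 14.8% over all tested genes). The other 3 were not called (22 listed, median 2.0). HLA-C was at 69.0 and 67.5 FPKM against 2.78 and 3.20, and B2M, the light chain of class I molecules, at 760 and 792 against 183 and 237, the latter without a call when the PSN-1 mimic library was left out (1.86). Of class II, CD74, the invariant chain, was at 66.3 and 47.1 against 0.143 and 0.127, HLA-DRA at 11.2 and 8.98 against 0, and CIITA, their master activator, at 2.62 and 1.86 against 0. Both classes thus had members called higher in PSN-1, but HLA-DPA1, HLA-DPB1, HLA-DQA1 and HLA-DMB of class II were too low to be tested. The CIITA call was lost with a pseudocount of 5 FPKM (0.53). PSMB8, an immunoproteasome subunit, was at 55.5 and 47.6 against 1.49 and 1.32. HLA-E was at 35.9 and 41.2 against 31.2 and 30.7 and was not called. HLA genes are alike and vary between people, so their FPKM can depend on how reads were placed. Of 49 receptor tyrosine kinases 28 were tested, 10 (35.7%) were higher in PSN-1 and 5 (17.9%) in MIA PaCa-2 (median 0.22). All tested genes stood at 14.8% and 8.95%. EPHB6, an ephrin receptor without kinase activity, was at 30.2 and 24.4 against 0, and ERBB2 at 17.0 and 14.6 against 45.1 and 43.0 (-1.43 ± 0.13). Of 50 cancer-testis genes 40 were under 0.1 FPKM everywhere, and the 2 tested were DDX43, at 13.1 and 18.9 in PSN-1, and PRAME, at 14.6 and 13.2 in MIA PaCa-2, each at or near 0 in the other line.

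Markers of other cell types were read in the same libraries. Of 7 leukocyte markers 2 were at 0 in all libraries and 1 more stayed under 0.1, and their summed level of 41.1 and 42.3 FPKM in PSN-1 and 21 and 35.4 in MIA PaCa-2 came mostly from CD68, a lysosomal protein that was at 20.1 to 38.7. PTPRC, the pan-leukocyte CD45, reached at most 0.433 FPKM, and CD3D and CD3E were at 0. Of 5 endothelial markers KDR and PECAM1 reached 1 FPKM in PSN-1, with sums of 7.16 and 8.06 there and 0.0273 and 0 in MIA PaCa-2. VWF and CDH5 stayed at or under 0.176. The 12 fibroblast and stellate cell genes summed to 102 and 84.4 FPKM in PSN-1 and 121 and 109 in MIA PaCa-2, and of 6 tested 4 were higher in PSN-1 and 2 in MIA PaCa-2, COL1A2 and RGS5. RGS5, of pericytes, was at 35.9 and 42.0 FPKM in MIA PaCa-2 against 1.74 and 2.77. PDGFRB was at 20.9 and 19.6 FPKM in PSN-1 and LUM, the proteoglycan lumican, at 19.7 and 14.3, while FAP was at 0 and ACTA2 at most 0.271 in all libraries. These values stand beside the matrix genes, and their part in those differences was not tested.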

How the data were processed

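Per the labels' protocols, RNA was extracted with the miRNeasy Micro kit, and a TruSeq stranded mRNA kit served for the libraries. The authors deposited 1 FPKM value for each symbol and library. TopHat2 2.1.1, Cuffdiff 2.2.1 and hg19 appear in the submitters' processing notes without their roles. The sources used here do not give the annotation, the strand setting or any scaling of the libraries.

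From these FPKM, log2(FPKM + 1) was fitted, for the 12423 genes averaging 1 FPKM or more, with limma 3.58.1 in R 4.3.3 (line, with the oligonucleotide as block; 1 residual degree of freedom, eBayes with trend, 4.07 prior degrees of freedom, two-sided). P-values were adjusted by Benjamini-Hochberg over all tested genes. The fit was tested on simulated data. Depth was estimated from the most frequent low value of 2137 single-transcript genes over the 4 libraries, assuming 200-base fragments. The peak held 223 values, each of 1 gene in 1 library.

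Members and the 28 gene lists were chosen with earlier results of these data known. Named genes were, leaving out short non-coding genes, the 12 with the largest smaller pair difference in each direction at a mean of at least 5 FPKM, the 12 highest expressed in 1 line only, up to 4 called and 2 least different members per list and direction, and fixed defining genes. Further list members, neighbours and FPKM quoted beside them were chosen after their values were seen. RefSeq (GRCh38.p14) matched 25008 symbols, and it gave the gene order for 22652 of them and the promoter sequences. Python 3.11.15 with pandas 2.3.3 and matplotlib 3.10.9 was used. Alternatives covered the pseudocount, the filter, scaling, the block, each pair alone and each library left out.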

Additional observations from a re-analysis of the deposited data

Results flagged for a closer look

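In 10 genes the line difference was past 2-fold in both pairs but in opposite directions, and 8 of them were small nucleolar RNAs, which are shorter than the fragments of such libraries. The other 2 were LOC101927865, with -1.05 in the scramble pair and 1.35 in the mimic pair, and RNF5, with 1.07 and -1.98 (log2, PSN-1 minus MIA PaCa-2). LOC101927865 was at 1.58 and 4.24 FPKM in the scramble and mimic libraries of PSN-1 and at 4.33 and 1.06 in MIA PaCa-2. RNF5 was listed at 0 in the PSN-1 mimic and MIA PaCa-2 scramble libraries and was at 1.10 and 2.94 in the other 2. With 1 library for each line and oligonucleotide, the difference between the pairs was not tested.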

How the results depend on the processing

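Of 232 named genes 226 were tested and 179 called. Of these 143 kept their call under every alternative that gave them a value, and no called difference changed direction. With a pseudocount of 5 FPKM, which shrinks the differences of low genes, the calls of KLK5 (-0.91), CXCL16 (-0.97), FOCAD (0.94), MLLT3 (1.0) and CIITA (0.53) were lost, as were those of PSPH (-1.14) and ASL (-1.23), and 1035 genes were higher in PSN-1 and 540 in MIA PaCa-2, and with a filter of 5 FPKM, which tests fewer genes, 1115 were higher in PSN-1. Genes expressed in PSN-1 only numbered 452 at 2 FPKM or more, 154 at 10 or more, 392 with under 0.5 in the other line and 168 when listed at 0 there. For MIA PaCa-2 only they numbered 84, 27 and 74 under the first 3 of these limits, 77 in the scramble pair alone and 81 in the mimic pair alone. With each library left out in turn, which leaves 1 library for a line, fitted without the block and assumed to vary like the other line, 1354 to 2083 genes were higher in PSN-1 and 763 to 1295 in MIA PaCa-2. Without the oligonucleotide block the counts were 1824 and 1106, and with median-ratio scaling 1833 and 1109. Leaving out the PSN-1 mimic library removed the calls of 20 named genes and the PSN-1 scramble library those of 14. A comparison of CpG content between genes expressed in 1 line only is void, since promoter sequences were found for 66.4% and 66.7% of their protein-coding members. At 0.1 FPKM a 2 kb transcript rests on about 3 fragments, which limits every statement of absence.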

Other observations

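Line differences also ran along stretches of neighbouring genes, a pattern looked for after the values were seen. In the order of the reference annotation, the median difference was taken over windows of 25 neighbouring tested genes on 1 chromosome, and 95% of the 11560 windows lay between -0.75 and 0.87. The highest, from SLC2A10 to FAM65C, had a median of 1.69, with 24 of 25 genes above 0, and those from NELFCD to COL9A3 and from PCNA to SNRPB2 had medians of 1.35 and 1.29, with 25 of 25 above 0 in each. The window from PARD6B to APCDD1L stood at 1.56, with 22 of 25 above 0. The lowest were the windows from GBAS to LOC100996437 (-1.26, 2 of 25 above 0), from GPR157 to FBXO2 (-1.08, 4 above 0), from SLC7A6 to DDX19B (-1.02, 3 above 0) and from SCNN1D to SKI (-0.97, 2 above 0). Some genes named above lay in these windows. SULF2, PREX1 and SNAI1 lay in the highest, and SNAP25 in that from PCNA to SNRPB2. PSPH and ASL lay in the lowest, PGD in that from GPR157 and NQO1 in that from SLC7A6. VWA1, expressed in PSN-1 only, went against its window, that from SCNN1D to SKI. Overlapping windows share genes, and no test was made.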
